A study of Mus musculus with 6 samples.

Results

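The 10 genes described here are products of neutrophils, the short-lived phagocytes that are made in bone marrow and patrol the blood. They were matched to the array by probe accession: all 10 of the genes had a probe, 12 probes in all, on an array of 55681 gene probes that carry 36717 gene names. Of these probes 27350 matched no gene symbol, and their accession was counted as the gene name. RNA levels come from whole gastrocnemius, the large muscle of the calf, of male mice at 13 weeks (young, 3 samples) and at 25 months (old, 3 samples). Total RNA of each sample was labelled with Cy3 and read on its own single-colour Agilent array. The labels name no strain, genotype or treatment, and no statement ties each sample to a separate animal, so p-values reflect only how far these samples vary, and some of that variation may be technical. The series title describes the old muscle as atrophied by aging.

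A neutrophil fills its granules while it matures in the marrow. Messages for secondary granule proteins such as lactoferrin and cathelicidin are made in precursor cells and have largely ceased by the time the cell enters the blood. Messages for the cytosolic proteins S100A8 and S100A9, which pair as calprotectin and bind calcium and metal ions, stay abundant in the mature cell. The members fall in 2 classes on this basis. The 6 mature products were S100a8, S100a9, Retnlg, Stfa2l1, Padi4 and Cd101, and the 4 granule genes were Camp, Ngp, Ltf and Lcn2. The members were chosen by their old-versus-young signal and background flags on these same arrays. Their differences between the ages are therefore given as a description with no test, and the separation of the classes is not independent evidence.

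S100a8 and S100a9 lie next to each other on chromosome 3, with 0 protein-coding genes between them in the RefSeq table. The 250 bases before the annotated start are shown for that pair, which had the largest differences, for Retnlg, which came next, and for Camp, the granule gene that lay lower in old muscle. They are RefSeq sequences of assembly GRCm38.p6, at chr3:90668821-90669070 on the plus strand, chr3:90695722-90695971 on the minus strand, chr16:48872358-48872607 on the plus strand and chr9:109849457-109849706 on the minus strand. Capitals mark TATAAA, searched on the gene's strand, and 2 motifs searched on both strands: TTNNGNAA, a loose form of the C/EBP site, and GAGGAA, the core of the PU.1 site. C/EBP and PU.1 proteins are transcription factors of myeloid cells.
S100a8: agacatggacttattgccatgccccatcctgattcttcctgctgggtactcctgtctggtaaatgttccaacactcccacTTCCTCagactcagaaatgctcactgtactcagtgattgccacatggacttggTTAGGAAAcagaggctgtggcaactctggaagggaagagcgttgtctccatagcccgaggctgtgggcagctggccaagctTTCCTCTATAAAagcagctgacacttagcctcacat
S100a9: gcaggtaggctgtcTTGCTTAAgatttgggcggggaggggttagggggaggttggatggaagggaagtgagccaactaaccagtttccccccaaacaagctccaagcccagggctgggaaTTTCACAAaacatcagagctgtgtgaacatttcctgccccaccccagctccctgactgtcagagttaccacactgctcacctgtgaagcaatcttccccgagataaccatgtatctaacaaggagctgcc
Retnlg: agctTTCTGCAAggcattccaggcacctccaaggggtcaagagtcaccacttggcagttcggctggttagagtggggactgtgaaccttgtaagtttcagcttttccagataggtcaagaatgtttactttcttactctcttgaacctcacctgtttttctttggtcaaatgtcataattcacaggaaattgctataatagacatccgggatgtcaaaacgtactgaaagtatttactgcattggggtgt
Camp: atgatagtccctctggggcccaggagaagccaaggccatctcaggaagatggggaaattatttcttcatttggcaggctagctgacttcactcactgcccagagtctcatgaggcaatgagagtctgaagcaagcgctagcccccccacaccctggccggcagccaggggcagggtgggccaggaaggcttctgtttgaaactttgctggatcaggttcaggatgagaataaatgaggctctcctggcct

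In the S100a8 window a PU.1 core on the opposite strand ends 31 bases before the start, and the TATA box follows at 30 to 25 bases before it. The C/EBP letters were found in 8 of the 10 members' windows, all but those of Padi4 and Camp, against 36.8% of 32851 RefSeq windows of the same length. GAGGAA was found in 5 of 10 windows (S100a8, Stfa2l1, Cd101, Ltf and Lcn2) against 23.3%, and TATAAA in 2 of 10 (S100a8 and Padi4) against 7.59%. Members of both classes carried the C/EBP and PU.1 letters. A match describes letters only.

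Among the mature products, S100a8 and S100a9 had the largest differences between the ages. Values are given as a percentage of each array's 75th percentile of signal. S100a8 read 8.39%, 15.6% and 15.6% on young replicates 1 to 3 and 478%, 304% and 307% on old replicates 1 to 3. S100a9 read 38.1%, 77.0% and 62.4% on the young arrays and 1868%, 1278% and 1338% on the old arrays. For both genes the lowest old value lay far above the highest young value, and old replicate 1 was the highest and young replicate 1 the lowest array. The old-minus-young log2 difference was 4.80 ± 0.31 for S100a8 (27.9-fold) and 4.70 ± 0.30 for S100a9 (25.9-fold), where the error is limma's moderated SE from 3 arrays per age. Both passed the array's flag for signal well above background on all 6 arrays.

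**Figure D1:**
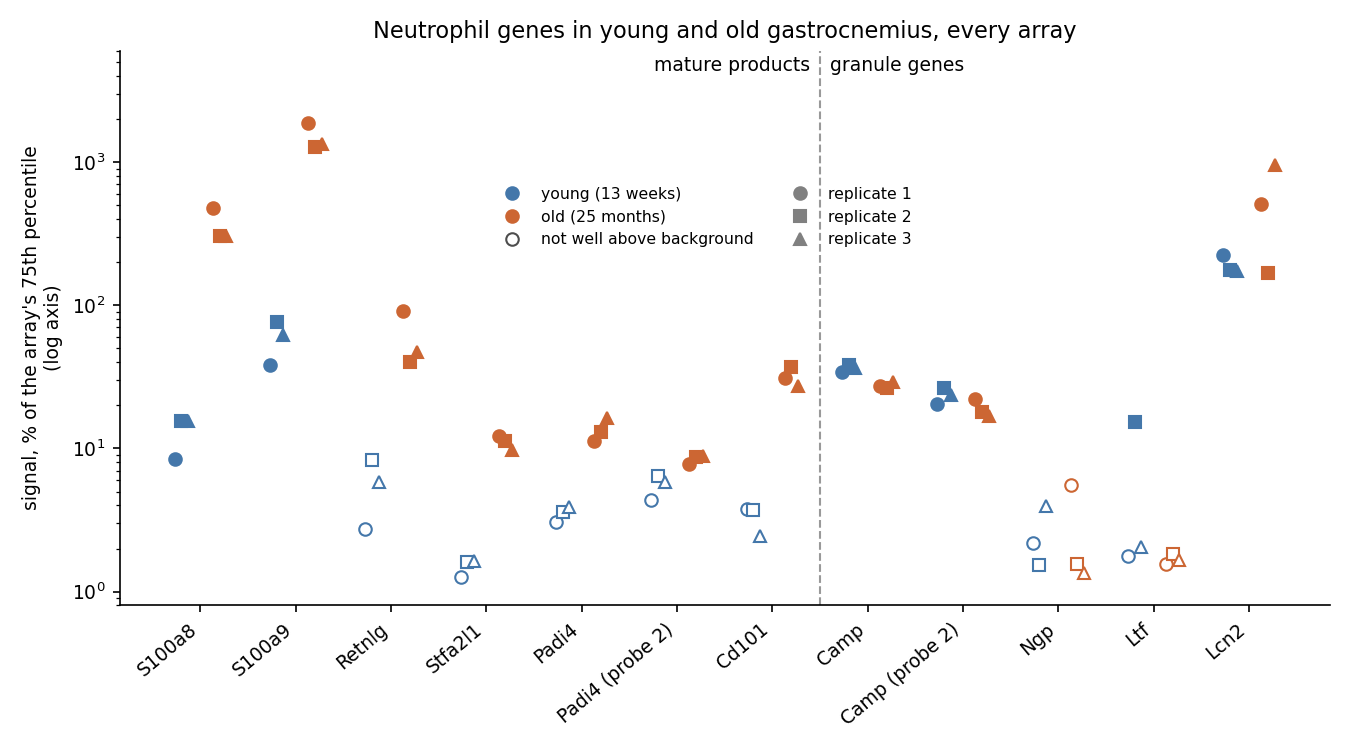
Signal of each of the 12 member probes on every array, as a percentage of the array's 75th percentile (log axis). Filled symbols are well above background and open symbols are not. The 6 mature products are filled and higher on all 3 old arrays, from 7.73% (the second Padi4 probe) to 1868% (S100a9), while Camp is lower on the old arrays by its main probe, Lcn2 overlaps between the ages, and Ngp and Ltf are open on all 3 old arrays.

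The 4 other mature products failed that flag on each young array and passed it on each old array. For these a fold is a lower bound. It sets the old mean against, on each young array, the dimmest signal that passed the flag or the probe's own signal where higher. Retnlg, which encodes a resistin-like secreted protein, read 2.73%, 8.25% and 5.83% in young muscle and 90.8%, 39.9% and 46.9% in old muscle, at least 8.23-fold higher. As with calprotectin, old replicate 1 was its highest array and old replicate 2 its lowest old array. Cd101, a membrane glycoprotein that marks mature neutrophils in mice and is also found on some other leukocytes, read 3.79%, 3.72% and 2.44% against 30.9%, 37.3% and 27.5%. It was at least 5.05-fold higher, and its 3 old values spanned only 0.44 on the log2 scale.

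Padi4, the deiminase that converts arginine of histones to citrulline when neutrophils release chromatin, had 2 probes. The brighter on average read 3.06%, 3.58% and 3.87% in young and 11.2%, 13.0% and 16.2% in old muscle, a bound of at least 2.12-fold. The other read 4.36%, 6.38% and 5.87% against 7.73%, 8.70% and 8.81%, at least 1.34-fold. Neither probe overlapped between the ages, and since both were dim in young muscle their sizes cannot be set against each other. Stfa2l1, a stefin of the cysteine protease inhibitors, was the dimmest mature product and read 1.27%, 1.60% and 1.64% against 12.2%, 11.3% and 9.83%, at least 1.76-fold higher. Stefin genes of the mouse are close copies of each other, so its probe may not tell them apart.

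The granule genes did not share that pattern. Camp, the precursor of the antimicrobial peptide cathelicidin, passed the flag on all 6 arrays with 2 probes. Its main probe read 34.4%, 38.3% and 36.7% in young and 27.3%, 26.5% and 28.9% in old muscle, a log2 difference of -0.40 ± 0.15, with no overlap between the ages. The second probe read 20.3%, 26.6% and 23.5% against 22.3%, 18.1% and 16.9%, a log2 difference of -0.30 ± 0.19, and its ages did overlap. Whether neutrophils gave the Camp signal was not tested. Ngp, a granule protein related to the cathelicidins, failed the flag on every array (1.53% to 3.99% in young and 1.36% to 5.56% in old muscle). Ltf, the iron-binding lactoferrin, passed it only on young replicate 2 (15.2%) and read 1.57% to 2.05% on the other 5 arrays. No fold is given for Ngp or Ltf, and these readings set only a ceiling near the dimmest signal that passed, 5.43% to 7.04% depending on the array.

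Lcn2, a lipocalin that binds bacterial siderophores and is also made by cells other than neutrophils, was the granule gene whose old samples disagreed most. It read 224%, 176% and 173% in young muscle and 512%, 169% and 952% in old muscle. Old replicate 2 lay below every young array and old replicate 3 above every other array, so the ages overlapped (log2 difference 1.20 ± 0.58). The difference was 0.63 without old replicate 3 and 1.88 without old replicate 2. On old replicate 2 the 6 mature products all lay above the young arrays.

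**Figure D2:**
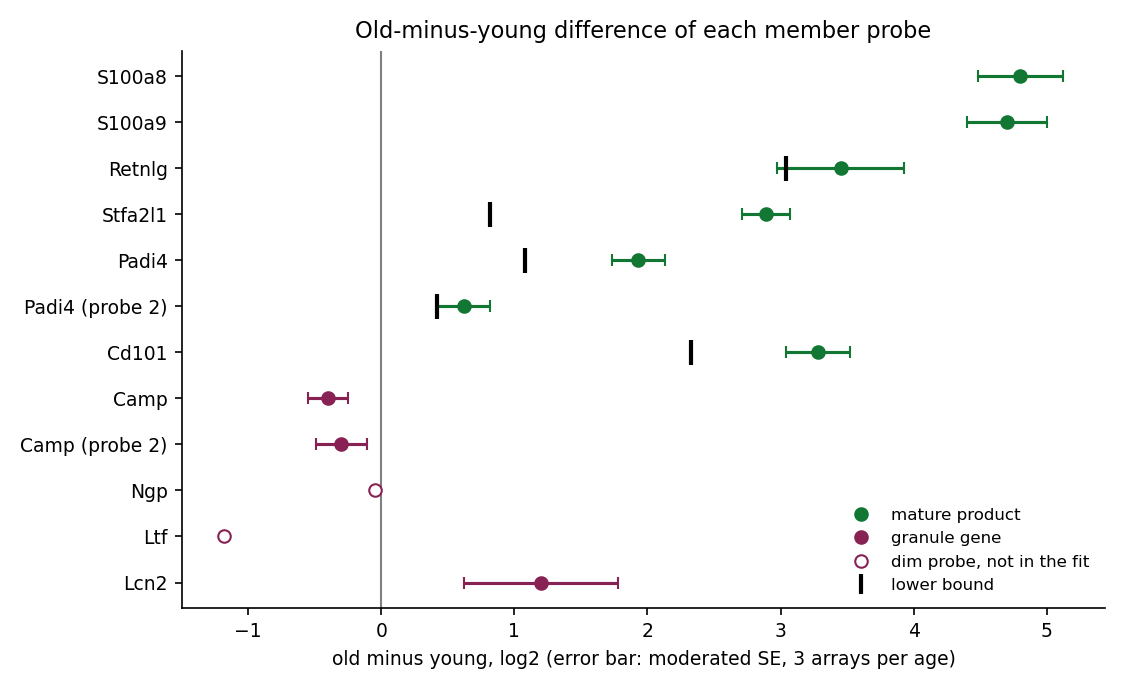
Old-minus-young log2 difference of the 12 member probes, with moderated SE (3 arrays per age) where the probe entered a fit and an open symbol where it was too dim. Black ticks are the lower bounds of probes that failed the background flag in young muscle. Measured differences of the mature products run from 0.62 to 4.80, and the granule probes from -1.18 to 1.20.

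Averaged over genes, with dim genes at their measured signal, the old-minus-young log2 difference was 3.51 for the 6 mature products and -0.11 for the 4 granule genes, a separation of 3.62. With Ngp and Ltf left out for being too dim it was 3.11, and with the 4 bounded genes at their bounds as well it was 2.40. Both of these settings were chosen after the values were seen. The normexp background correction, whose offset compresses dim signals, gave 1.70. Under it S100a8 had 3.31 and S100a9 4.26, whereas Retnlg had 1.37, Cd101 0.97, Stfa2l1 0.52, Padi4 0.34 and Camp -0.23. For Retnlg, Cd101, Stfa2l1 and Padi4 these lie below the stated bounds (log2 3.04, 2.33, 0.82 and 1.08). The bounds therefore hold only for the main processing. The 6 mature products kept a positive difference and Camp a negative one under each alternative run.

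In limma's fit over all 20907 genes tested, 8 members passed the filter on dim probes and 5 of them had a Benjamini-Hochberg adjusted p under 0.05. Without any 1 old array only 4 members were tested. Of these, 0 passed without old replicate 3, and 2 (S100a8 and S100a9) passed without old replicate 1 or old replicate 2. With a replicate block 1 member (Cd101) passed. Of all genes 0.254% did in the fit to all arrays, 0.196% as increases and 0.0574% as decreases. The values of all 6 mature products were separated between the ages in the direction of old, as were 7.92% of all genes, and Camp was separated in the direction of young, as were 13.9%. Since the members were chosen with this contrast known and 4 passed the filter only through the old arrays, nothing is read from these counts. In bulk muscle, more neutrophils, more message per neutrophil and message from other cells cannot be told apart.

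Profiles over the 6 arrays were ranked by likeness to S100a8, for tested genes with a RefSeq symbol (13847 of 20907). Symbols of the Rik, Gm, LOC or accession kind were left out. The 8 most alike of those ranked were S100a9, Gdf5, Sirpb1a, Retnlg, Hpgd, Chil3, Shisal1 and Csprs. Likeness was the root-mean-square difference of log2 values centred on each gene's mean, so it weighs the size of a difference as well as its pattern. S100a9 differed from S100a8 by 0.11 on that scale, the next gene, the growth factor gene Gdf5, by 0.44, and Retnlg by 0.73. Gdf5 was the ranked gene nearest to S100a8 outside the members. It read 226%, 334% and 307% on old replicates 1 to 3, so its highest old array was replicate 2, the lowest one for S100a8. Hpgd, the enzyme that inactivates prostaglandins, read 463%, 178% and 243% there and ranked the old arrays as S100a8 and Retnlg did. A second probe of Hpgd differed by 3.74, and a second probe of Gdf5, dim in young muscle, was at least 5.27-fold higher. For Csprs a probe above background on 5 of 6 arrays differed by 0.17, so its probes disagree, and the other probe of Shisal1 was above background on no array.

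Other genes were taken from lists that hold no member, 9 of them related to neutrophils and 8 of them markers of other cell types, and these were tested. Of 111 genes tested in the 17 lists, 2 rose and 0 fell at limma's adjusted p under 0.05, against 0.254% of all genes. Clec4d, a C-type lectin receptor of myeloid cells, read 7.58%, 13.0% and 7.63% in young and 59.2%, 47.0% and 60.7% in old muscle (log2 difference 2.60 ± 0.26, adjusted p = 0.0263). Il1b, the inflammatory cytokine made by neutrophils and macrophages, read 1.36%, 1.96% and 2.96% against 16.9%, 16.1% and 17.7% and was at least 2.70-fold higher (adjusted p = 0.0214). It failed the background flag on every young array and passed the filter only through the old arrays, so its adjusted p is not independent support. The same holds for Fpr1 and Fcgr1 below. Clec4d and Il1b were both separated in all 6 arrays. Clec4d was lost without young replicate 1 (adjusted p = 0.0855), young replicate 3 (0.0766), old replicate 2 (0.107) or old replicate 3 (0.127), and ran from 0.0172 to 0.127 over the alternatives. Il1b was lost without young replicate 2 (0.0984), and was not tested without an old array, where the filter removed it. Under normexp its log2 difference was 0.60 (adjusted p = 0.166), below the stated bound, and over the alternatives its adjusted p ran from 0.00729 to 0.166. Age overlaps slide row, since the 3 young arrays and 1 old array lay in the first row and 2 old arrays in the second, and with row as a block neither call held (adjusted p = 0.0888 for Clec4d and 0.0864 for Il1b). Both were also lost with no filter (0.0901 and 0.0792) and with a replicate block (0.100 and 0.0696).

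Among other genes of the mature neutrophil's surface and cytosol, 10 of 21 were tested, 1 rose (Clec4d) and the median log2 difference was 0.50 against -0.06 for all genes. The formyl peptide receptor Fpr1 was at least 2.31-fold higher (adjusted p = 0.161), and the histamine-forming enzyme Hdc had 1.15 ± 0.23 (adjusted p = 0.136). Trem1, an amplifying receptor of myeloid cells, had -0.52 ± 0.15 (adjusted p = 0.225). Csf3r, the receptor for the neutrophil growth factor G-CSF, had 0.05 ± 0.16, and its probe was bright on every array, from 14392% to 18197%. Whether neutrophils gave the Csf3r signal was not tested, and the gene is counted in the list's median. The chemokine receptor Cxcr2 passed the background flag only on old replicate 1 (16.6%), and Fpr2 on 2 of 3 old arrays. Ly6g, the usual surface marker of mouse neutrophils, had no probe matched by accession here.

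Genes of earlier neutrophil stages were mostly below the flag. In the list of primary granule and precursor genes 2 of 10 were tested and 0 passed, and 6 failed the flag on every array, among them myeloperoxidase (Mpo, 3.04% to 5.45%) and cathepsin G (Ctsg). Neutrophil elastase (Elane) was detected on all arrays at -0.31 ± 0.18 (adjusted p = 0.467), and whether neutrophils gave its signal was not tested. Serpinb1a, an inhibitor of granule proteases that other cells also make, had 1.17 ± 0.61 (adjusted p = 0.427), with 319%, 536% and 1881% on the old arrays.

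Of the other secondary and tertiary granule genes 6 of 11 were tested, all 6 with a positive difference, and 0 passed (median 0.84). Chil3, a chitinase-like lectin of neutrophils and of some macrophages, had the largest difference, 4.01 ± 0.58, with an adjusted p of 0.0657. It read 9.64%, 16.8% and 15.1% in young and 278%, 85.3% and 434% in old muscle, so the ages were separated while the old arrays ranked as for Lcn2. The protease inhibitor Slpi had 3.06 ± 0.57 (adjusted p = 0.119) and the metalloprotease Adam8 0.99 ± 0.23 (adjusted p = 0.153). The collagenase Mmp8 passed the flag on 2 of 3 old arrays (11.6% and 8.22%) and no young one, and the gelatinase Mmp9 on none.

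**Figure D3:**
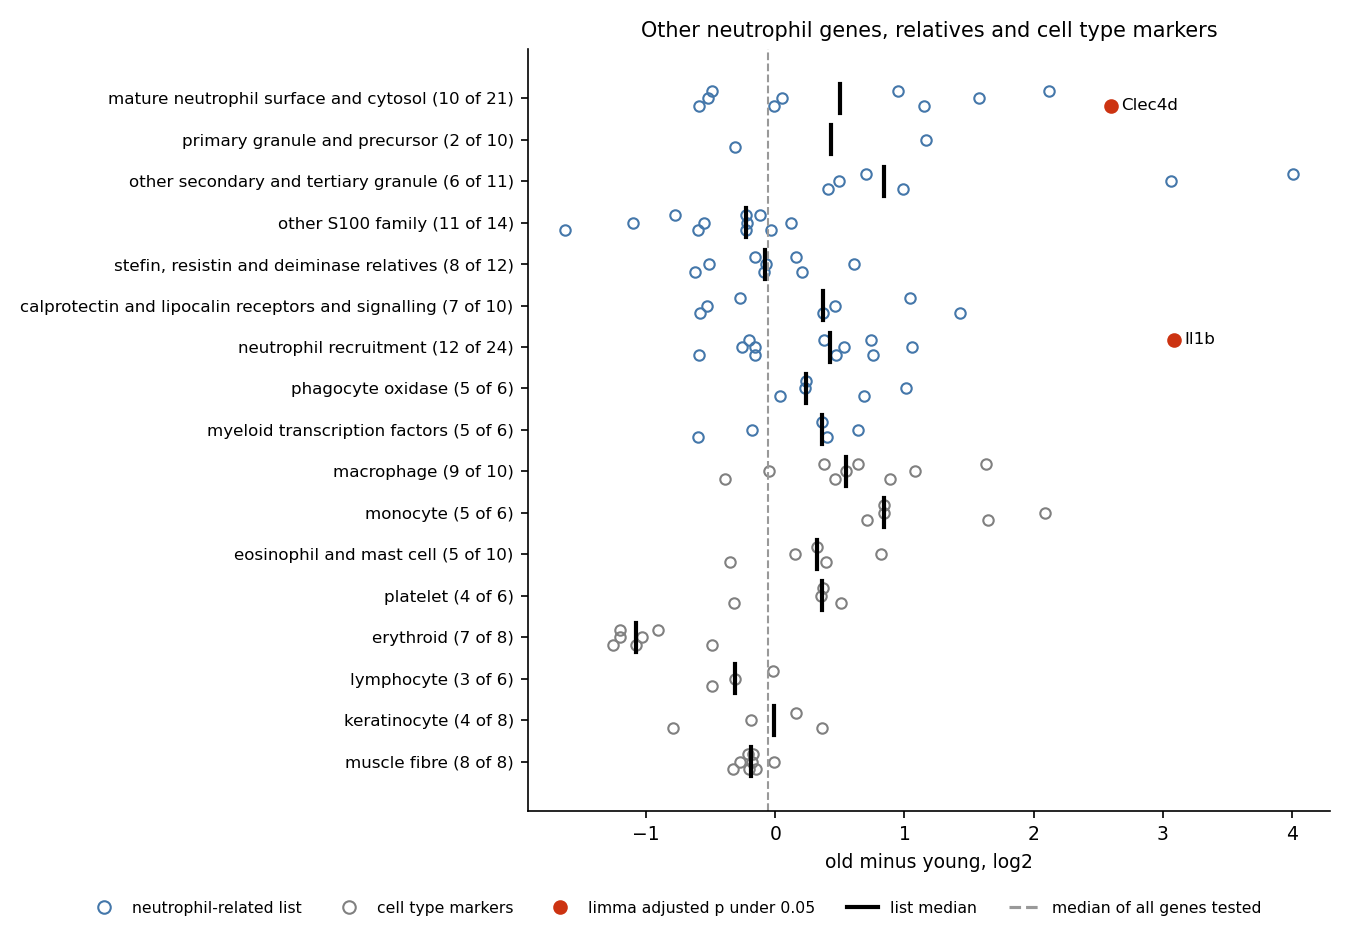
Old-minus-young log2 difference of each tested gene in 9 neutrophil-related lists and 8 lists of cell type markers (genes tested of genes listed in brackets). Red points passed limma's adjusted p under 0.05, which only Clec4d and Il1b did, black ticks are list medians, and the dashed line is the median of all genes, -0.06.

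Relatives of the members were tested as families. The other S100 genes had 11 of 14 tested, 10 of them with a negative difference, a median of -0.23 and 0 past the threshold. The values were -0.78 ± 0.23 for S100a3 (adjusted p = 0.229), -0.60 ± 0.19 for the Schwann cell gene S100b (0.252), and -0.12 ± 0.26 for S100a6 (0.850). In the stefin, resistin and deiminase families 8 of 12 were tested and 0 passed (median -0.08). Cstb, a stefin made by most cells, had 0.61 ± 0.17 (adjusted p = 0.197), the resistin-like Retnla had -0.62 ± 0.20 (0.255), and Padi2, the deiminase of muscle and other tissues, had -0.09 ± 0.21 (0.862). Stfa1, a near copy of Stfa2l1, failed the background flag on every array.

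Calprotectin binds the pattern receptor TLR4, and lipocalin 2 is taken up by SLC22A17. Of 10 genes for these receptors and their signalling 7 were tested and 0 passed (median 0.37). Tlr4 had 1.43 ± 0.32 (adjusted p = 0.152) and was separated, with 34.5% to 67.2% in young and 97.0% to 178% in old muscle. Slc22a17 had -0.58 ± 0.18 (adjusted p = 0.247), the TLR4 co-receptor Ly96 had 0.46 ± 0.20 (0.366), and the adaptor Myd88 had 1.04 ± 0.54 (0.425), again highest on old replicate 3.

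Of the signals and adhesion molecules that draw neutrophils into tissue 12 of 24 were tested, 1 rose (Il1b), 7 were above background on all 6 arrays and 9 failed the flag on every array, among them the chemokines Cxcl2 and Cxcl3, the growth factor Csf3 and the endothelial selectin Sele. Cxcl1 and Cxcl5 passed it only on old replicate 3, at 15.3% and 42.3%. Selplg, a ligand through which leukocytes roll on vessel walls, had 0.53 ± 0.18 (adjusted p = 0.285). The adhesion integrin subunit Itgb2 had 0.76 ± 0.33 (adjusted p = 0.365) and C5ar1, the receptor for complement C5a, had 1.06 ± 0.43 (0.332). In the phagocyte oxidase list 5 of 6 were tested, each with a positive difference, and 0 passed (median 0.24), with Rac2 at 1.01 ± 0.21 (adjusted p = 0.137). In the list of myeloid transcription factors 5 of 6 were tested and 0 passed (median 0.36), and PU.1 itself (Spi1) failed the flag on every array.

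Markers of other cells that a muscle sample can hold were measured beside these genes. All 5 tested monocyte markers had a positive difference (median 0.84), 0 passed, and their summed signal was 47.8% to 61.9% in young and 100.1% to 228% in old muscle. Plac8 had 2.09 ± 0.44 (adjusted p = 0.141) and Fcgr4 1.65 ± 0.43 (0.189). The main Plac8 probe gave 11.3% to 20.8% of signal to the young sums and 40.7% to 123% to the old sums. A second Plac8 probe, above background on 2 old arrays and on no young one, differed by 0.69 and overlapped between the ages. Of 9 macrophage markers 7 were positive (median 0.55), 0 passed, and the sums were 2363% to 2566% against 2787% to 3370%, with Fcgr1 at least 2.14-fold higher (adjusted p = 0.0635), C1qb at 0.89 ± 0.17 (0.126) and Cd68 at 1.08 ± 0.27 (0.175). The main Csf1r probe gave 1306% to 1376% of signal to the young macrophage sums and 1146% to 1472% to the old sums. Its log2 difference was -0.05, and other Csf1r probes read only 30.7% to 59.9%. The part of monocytes and macrophages in the members' differences was not tested.

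All 7 erythroid markers had a negative difference (median -1.08), 0 passed, and their summed signal was 64207% to 93557% in young and 29205% to 46513% in old muscle, with the globin genes Hba-a2 at -0.91 ± 0.22 (adjusted p = 0.174) and Hba-a1 at -1.20 ± 0.32 (0.196), near copies whose probes may share signal. The mature neutrophil products were higher on the 3 arrays with the lower erythroid sums, and the part of blood content in their differences was not tested. Platelet markers had a median of 0.36 (4 of 6 tested, 0 passed). Mast cell and eosinophil markers had a median of 0.32. The eosinophil genes Siglecf, Prg2 and Epx failed the flag on every array, and Ccr3 passed it on 1 old array and no young one. Calprotectin is also made by stressed epidermis. Of the 8 keratinocyte markers, Krt1 and Dsg3 failed the flag on every array. Krt5 passed it only on old replicate 1, by 1 of its 2 probes (11.9%), and Krt15 on 1 old array. Krt10 passed it on all 6 arrays by its main probe (75.1% to 172%), and Krt14, Lor and Sfn on 2 or 3 arrays of each age. The list's median was -0.01 and its sum was 142% to 215% in young and 123% to 165% in old muscle. Lymphocyte markers had a median of -0.31 over 3 genes. The 8 muscle fibre markers were all detected on every array, had a median of -0.19 and 0 passed, which fits the label of the tissue.

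**Figure D4:**
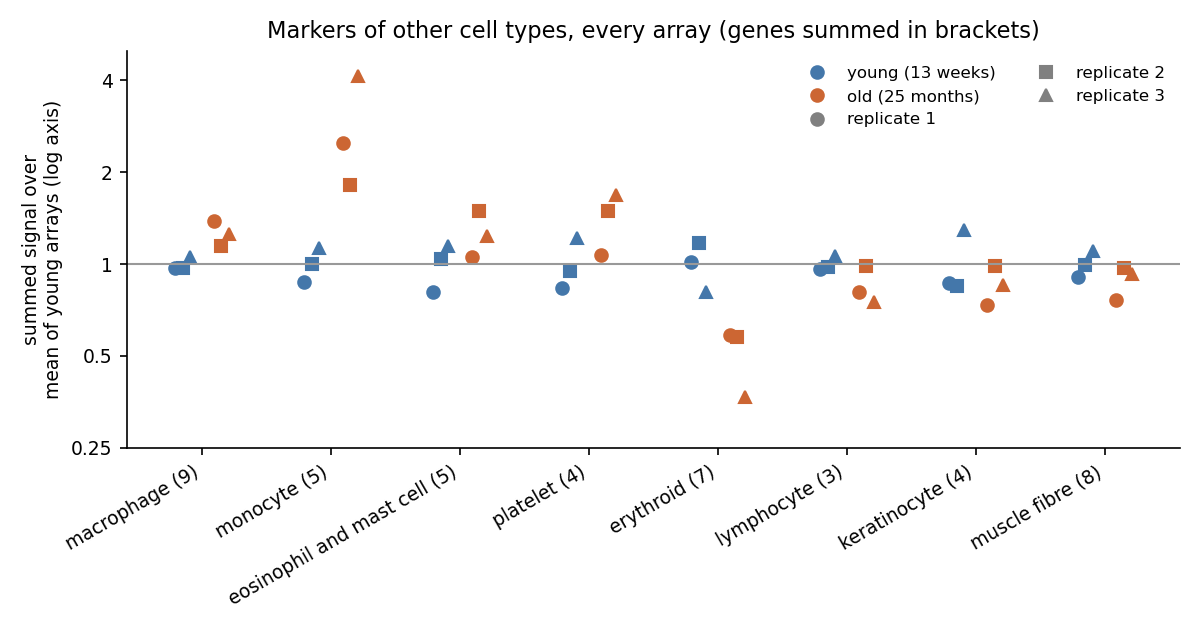
Summed signal of the tested markers of 8 cell types on each array, divided by the mean of the 3 young arrays (log axis, number of genes summed in brackets). Monocyte markers lie higher on all 3 old arrays (sums of 100.1% to 228% of the 75th percentile, against 47.8% to 61.9%) and erythroid markers lower (29205% to 46513%, against 64207% to 93557%).

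All 6 arrays shared 1 slide and 1 scan time. Between 49.9% and 54.8% of gene spots were well above background and 0 were saturated, and the number of arrays limits the precision. Negative-control spots averaged 61.3 on old replicate 1, while the other 5 arrays ranged from 51.9 to 55.1. Without it S100a8 and S100a9 differed by 4.59 and 4.52 (log2), and the 4 products that were dim in young muscle passed the flag on both remaining old arrays. It was also the only old array in the first row of the slide, where the 3 young arrays lay. Within that row, where the old side is 1 array, the log2 differences were 5.23 for S100a8, 5.04 for S100a9 and -0.42 for Camp.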

How the data were processed

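Per the file headers, the authors scanned 6 single-colour arrays and extracted spots with Feature Extraction 11.0.1.1, while the submitters' processing notes name version 9.5. The deposited files give processed signal as linear intensity, background-subtracted by that software. The deposited value table equals 100 times the ratio of this intensity to the 75th percentile of its array, rounded, for 100% of values. It is linear and not centred, with column medians of 6, 7, 7, 9, 7 and 6, and served as an alternative.

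Control spots and outlier spots (161 to 212 per array) were left out, spots of a probe were averaged, and log2 values were taken relative to each array's 75th percentile. Of 55681 probes, 28331 were given a symbol by accession through RefSeq, and the rest were counted as genes under their accession. A probe was kept if 3 or more of the 6 arrays flagged it as well above background, with the probe of highest mean for each gene (20907 genes). Ages were compared with limma 3.58.1 in R 4.3.3 (lmFit, eBayes) and Benjamini-Hochberg adjustment. For a single value, an exact permutation test of 3 arrays against 3 cannot give a p below 0.1. For normexp (offset 50) the median spot signal was used. Array coordinates are of another build (mm9) than the RefSeq tables (GRCm38.p6) and were not used. Named genes were the members and the 8 genes nearest to S100a8 among those ranked. Also named were, in each list, genes past the threshold and up to 4 more, taken from the lowest p upward. Other listed genes named for their role or detection, such as Csf3r, S100a6, Padi2, Mpo and Cxcl5, were chosen after their values were seen. The members and lists were chosen with earlier results of these data known. One listed gene is not reported here.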

Additional observations from a re-analysis of the deposited data

How the results depend on the processing

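The count of genes past limma's adjusted p of 0.05 was 53, and it was 35 when all 6 arrays had to be above background, 8 with no filter, 194 with array weights (132 higher) and 5 with a replicate block. Leaving out 1 array gave 1 (without old replicate 3) to 186 (without old replicate 1). The share of increases was 41 of 53, against 26 of 42 after median centring, which moved the median of all genes from -0.06 to -0.21, and 22 of 41 with slide row as a block. Of the listed genes, 2 passed, with 1 under normexp, 1 under the filter on all 6 arrays, 0 with no filter, 5 with array weights, 0 with a replicate block and 0 with slide row as a block, and 0 to 2 without 1 array. The separation of the classes (3.62) was 1.70 under normexp, 3.19 from the authors' values, 3.44 to 3.73 without 1 array, and, in settings chosen after seeing the data, 3.11 with detected granule genes only, 2.40 with bounds and 4.05 without Lcn2. With the replicate number as a block it was 3.62. No label pairs the samples by number. Deviations of same-numbered arrays correlated at -0.0626, -0.271 and 0.0277, which with 3 arrays per age cannot decide whether samples were paired. The cause of these shifts was not tested. Signal over background limits Retnlg, Stfa2l1, Padi4 and Cd101 to lower bounds and leaves Ngp and Ltf without a fold.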
